A study of Homo sapiens with 12 samples.

Results

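Transcript levels of 10 genes that set the pace of the early cell cycle were followed across 6 groups of ARID1A-knockout HEK-293T cells. The genes were the CDK inhibitors CDKN1A, CDKN1B, CDKN1C, CDKN2C and CDKN2D, the cyclins CCND2, CCND3, CCNE1 and CCNE2, and the kinase CDK6. They were chosen by symbol, each found once in the count file of every library, and make up 10 of the 60645 gene names counted. All 10 passed the filter on low counts, with 99 to 2052 counts in a library.

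Cyclins bind and activate cyclin-dependent kinases (CDKs). D-type cyclins act with CDK4 or CDK6 and E-type cyclins with CDK2, and both kinases phosphorylate the retinoblastoma (RB) family of pocket proteins, which frees E2F transcription factors to switch on S-phase genes. A pair of inhibitor families holds these kinases back: the INK4 proteins bind CDK4 and CDK6 and keep D-type cyclins off, and the CIP/KIP proteins bind cyclin-CDK complexes, chiefly those of CDK2. CDKN1A is a classical target of p53. HEK-293T cells carry the SV40 large T antigen, which binds and disables both the RB family and p53, so the brake below these genes and the activator above CDKN1A are both altered in every group. The viral transcript was not analysed here.

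HEK-293T is a human embryonic kidney line, grown in DMEM with serum, and the knockout derivative used throughout is named 12KO by the submitters. ARID1A belongs to the SWI/SNF (BAF) complex, which moves nucleosomes with energy from ATP. IDR1b is a segment of one of its intrinsically disordered regions. The knockout cells received an empty vector (no ARID1A), wild-type ARID1A (WT) or ARID1A without IDR1b (ΔIDR1b), and on top either a second empty vector (EV) or EWS-FLI1 (EF), the fusion of EWSR1 and FLI1 that drives Ewing sarcoma. The fusion was given as 2 µg of a pcDNA plasmid and RNA was taken 48 h later. All 6 groups therefore share the knockout, and no group holds cells with their own ARID1A. The labels do not say whether 12KO is 1 clone or how the ARID1A constructs were delivered. The stated aim was the part that IDR1b plays in transcription controlled by EWS-FLI1. Each group held 2 libraries, called repeat 1 and repeat 2. Nothing in the labels says that the repeats were separate cultures, so p-values measure only the spread between these libraries, which may be technical.

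The sequence just upstream of the RefSeq start is shown for 4 genes whose levels differed between ARID1A states, picked by hand as examples. The set of RefSeq promoters used here (GRCh38.p14) held an entry for 7 of the 10 genes. CCND2, CDKN1C and CCNE2 had no entry in this set, which does not mean that RefSeq lacks them. The 250 bases before the RefSeq start are printed 5′ to 3′ on the gene's strand, at chr6:36678464-36678713 (plus strand) for CDKN1A, chr6:42048689-42048938 (minus strand) for CCND3, chr19:29811741-29811990 (plus strand) for CCNE1 and chr1:50960495-50960744 (plus strand) for CDKN2C. The GENCODE genes given below begin upstream of that start for CDKN1A and CCND3, so these 2 windows lie inside the GENCODE gene. Capitals mark GC boxes, the SP1 motif GGGCGG on either strand (CCGCCC where it lies on the opposite one).
CDKN1A: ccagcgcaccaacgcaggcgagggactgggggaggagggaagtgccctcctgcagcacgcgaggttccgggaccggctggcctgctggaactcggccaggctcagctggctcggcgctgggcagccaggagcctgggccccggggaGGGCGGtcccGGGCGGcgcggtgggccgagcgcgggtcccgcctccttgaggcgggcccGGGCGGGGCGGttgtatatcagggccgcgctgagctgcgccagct
CCND3: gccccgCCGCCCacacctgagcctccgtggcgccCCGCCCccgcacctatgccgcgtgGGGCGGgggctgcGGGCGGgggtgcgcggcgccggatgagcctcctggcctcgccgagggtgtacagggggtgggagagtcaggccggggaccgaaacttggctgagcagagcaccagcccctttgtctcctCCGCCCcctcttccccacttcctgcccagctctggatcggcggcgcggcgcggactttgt
CCNE1: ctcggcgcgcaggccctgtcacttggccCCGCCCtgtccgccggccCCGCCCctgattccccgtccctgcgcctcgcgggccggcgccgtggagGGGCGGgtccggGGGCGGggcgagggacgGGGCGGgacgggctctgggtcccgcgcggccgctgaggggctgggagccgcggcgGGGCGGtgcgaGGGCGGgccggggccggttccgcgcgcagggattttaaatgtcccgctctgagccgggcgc
CDKN2C: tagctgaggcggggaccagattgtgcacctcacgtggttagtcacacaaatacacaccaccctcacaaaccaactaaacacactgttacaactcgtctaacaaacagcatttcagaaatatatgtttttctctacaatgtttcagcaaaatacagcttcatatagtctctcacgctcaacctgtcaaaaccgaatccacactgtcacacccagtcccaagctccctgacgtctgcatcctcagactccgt

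In these windows CCNE1 had 7 GC boxes, CCND3 had 5, CDKN1A had 4, of which the pair nearest the start overlap by 1 base, and CDKN2C had 0. Over windows of 300 bases, from 250 before the start to 50 after it, 45% of the 35116 promoters of the table held at least 1 GC box. Of the other matched genes, CDKN2D and CDK6 had 3 each and CDKN1B had 1. CDKN2C was thus the only matched gene without a GC box, and only the first listed start of each gene was used. An E2F motif (TTTCCCGC, TTTGGCGC, TTTCGCGC or TTTGCCGC), the ETS motif CCGGAAGT, the repeat GGAAGGAA and the AP-1 motif TGANTCA were searched on both strands. They occurred in 3.31%, 4.14%, 3.67% and 7.71% of all promoters, and in 0 of the 7 windows. That says only that these letters are not in these windows.

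Totals ran from 11702251 to 14445379 counts per library, and 0 counts in a library allows up to 0.256 CPM (3 counts). Repeats differed beyond sampling noise in every group, with a chi-square over its degrees of freedom of 3.02 (no ARID1A with EF) to 12.1 (WT with EF). All 12 libraries entered 1 fit, so leaving out a repeat of WT with EF also changes comparisons that do not use that group. A call gained in that way is no further evidence from the compared libraries. The introduced genes followed their labels. ARID1A stood at 147 to 165 CPM in the 4 no-ARID1A libraries, 1843 to 2291 CPM in WT and 2608 to 2878 CPM in ΔIDR1b. FLI1 had 0 to 2 counts in the EV libraries and averaged 1759 CPM in no ARID1A, 3568 CPM in WT and 1897 CPM in ΔIDR1b with EF. ΔIDR1b thus had more ARID1A transcript than WT, and WT had more fusion transcript than the other states with EF. The part of these levels in the results below was not tested. Of 7 markers of the HEK-293 background, KRT8, KRT18, VIM, CDH2, PAX2 and LHX1 were detected in every library and NEFM was at 0 or 1 count. Of 7 blood and endothelial markers, PTPRC, CD3E, PECAM1 and CDH5 reached at most 6 counts, and the list's summed level was 4.76 to 9.27 CPM.

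WT ARID1A was set against no ARID1A first, and every call was a higher level in WT, of inhibitors, cyclins and CDK6. CDKN1B, CDKN1C and CDKN2C had differences below 0 with both vectors, none of them called. With the EV, 5 of the 10 genes were called higher in WT and 0 lower (CDKN1A, CDKN2D, CCND2, CCND3 and CCNE1), against 11.7% of the 20377 genes tested, 6.5% higher and 5.19% lower. With EF, 5 were again called higher and 0 lower (CDKN1A, CCND2, CCND3, CCNE1 and CDK6), against 18.1% of genes, 9.72% higher and 8.36% lower. A call is an adjusted p under 0.05 in edgeR's quasi-likelihood test with Benjamini-Hochberg adjustment over all genes tested. The median log2 difference of the 10 genes was 0.34 with the EV and 0.35 with EF, and that of all genes was -0.01 and -0.02. The EV and EF comparisons share no library. With upper-quartile scaling 5 and 4 genes were called higher, while the split over all genes turned from 1324 higher and 1057 lower to 898 and 1381 with the EV, and from 1981 and 1703 to 1505 and 2062 with EF.

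With ΔIDR1b the genes moved both ways. With the EV, 2 were called higher (CDKN1A and CCND2) and 2 lower (CDKN1C and CDKN2C) than in no ARID1A, and 33.3% of all genes were called, 16.4% higher and 16.8% lower. With EF, 4 were called higher (CDKN1A, CCND2, CCND3 and CDK6) and 3 lower (CDKN1B, CDKN1C and CDKN2C), while 35.9% of all genes were called, 18.1% higher and 17.9% lower. The count with the EV lay close to the share over all genes. With a replicate block inside each vector it was 6 of 10, as CCND3 and CDK6 were added, and 7659 of the 20377 genes were called. Median log2 differences were 0.23 and 0.21, against 0.00 and 0.02 over all genes. These comparisons use the same no-ARID1A libraries as those of WT.

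Set directly against WT, ΔIDR1b had 1 gene called lower with the EV (CDKN2D) and 0 higher, where 24.5% of all genes were called, 11.1% higher and 13.4% lower. With EF it had 1 called lower (CDKN1C) and 0 higher, where 18.6% were called, 8.48% higher and 10.1% lower. Both counts lie below the share over all genes, but a gap this small among 10 genes shows nothing particular to them. With a replicate block inside each vector the first was 3 of 10, as CDKN1A and CDKN1C were added, and 6121 of the 20377 genes were called. The median log2 difference of the 10 genes was -0.16 and -0.14, and that of all genes 0.01 in both. With upper-quartile scaling the split over all genes with the EV turned from 2267 higher and 2728 lower to 2791 and 2184, the CDKN2D call was lost (adjusted p = 0.051) and CDKN1A was called higher (adjusted p = 0.0275). On simulated data this design recovered 27 of 67 genes changed by 1.5-fold between WT and no ARID1A with the EV. Between ΔIDR1b and WT with the EV it recovered 34 of 67 (19519 genes simulated). Only 200 genes were changed there, far fewer than were called in the data, and the adjustment is stricter when fewer genes change. The recovered shares are therefore no direct measure of detection for the 10 genes. A difference that was not called is not shown to be absent.

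**Figure D1:**
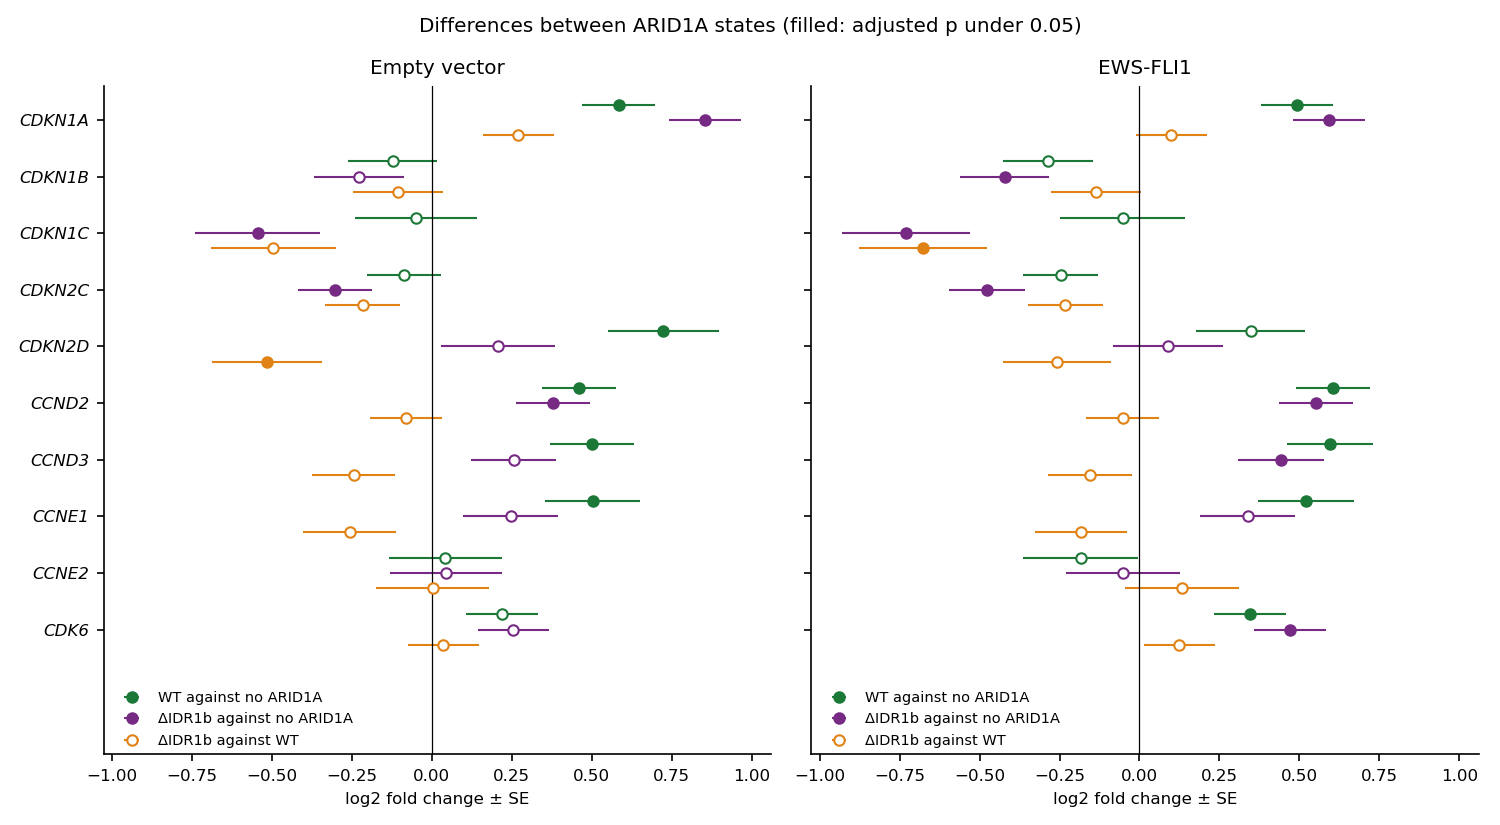
Log2 fold change (horizontal axis, bars show 1 SE) of each gene between ARID1A states, with the empty vector on the left and EWS-FLI1 on the right. Green is WT against no ARID1A, purple ΔIDR1b against no ARID1A and orange ΔIDR1b against WT. Filled points passed an adjusted p of 0.05. CDKN1A lies right of 0 in green and purple in both panels (0.49 to 0.85), and CDKN1C lies left in purple and orange (-0.50 to -0.73).

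Among the CIP/KIP inhibitors, CDKN1A (p21, chromosome 6, 36676460 to 36687337; positions are of GRCh38) showed the widest range, with a highest group mean 1.81 times the lowest. Its level was 63.9 and 63.7 CPM in no ARID1A with the EV, and 67.3 and 67.2 CPM with EF. In WT it was 96.6 and 94.6 CPM with the EV, and 88.1 and 101.2 CPM with EF. In ΔIDR1b it was 116.5 and 114.2 CPM with the EV, and 91.5 and 111.3 CPM with EF. All 4 libraries without ARID1A thus lay below all 8 with either form of it. WT exceeded no ARID1A by 0.58 on the log2 scale with the EV (SE 0.11, adjusted p = 6.37e-04) and by 0.49 with EF (SE 0.11, adjusted p = 0.00216). ΔIDR1b exceeded it by 0.85 with the EV (1.81-fold, SE 0.11, adjusted p = 3.57e-07) and by 0.59 with EF (SE 0.11, adjusted p = 9.53e-05). These 4 calls were made under all 20 alternatives. The difference between ΔIDR1b and WT with the EV, 0.27 (SE 0.11), had an adjusted p of 0.0723 and was called with a replicate block inside each vector (adjusted p = 0.023, and 0.023 to 0.238 over all alternatives). It was also called without repeat 1 (adjusted p = 0.025) or repeat 2 (adjusted p = 0.0254) of WT with EF. With EF it was 0.10 (SE 0.11, adjusted p = 0.577).

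CDKN1C (p57, an imprinted gene, chromosome 11, 2883213 to 2885775) was set apart by ΔIDR1b. Its level was 14.0 and 13.2 CPM in no ARID1A with the EV, 13.5 and 12.7 CPM with EF, 14.2 and 12.1 CPM in WT with the EV, and 11.6 and 13.6 CPM with EF. In ΔIDR1b it was 9.36 and 9.29 CPM with the EV, and 7.01 and 8.76 CPM with EF. The 4 ΔIDR1b libraries lay below the other 8, and WT overlapped no ARID1A. Against no ARID1A the log2 difference of ΔIDR1b was -0.55 with the EV (SE 0.20, adjusted p = 0.0304) and -0.73 with EF (SE 0.20, adjusted p = 0.00448). Against WT it was -0.68 with EF (SE 0.20, adjusted p = 0.0157) and -0.50 with the EV (SE 0.20, adjusted p = 0.0621), where the block within each vector gave an adjusted p of 0.0452 (0.0424 to 0.318 over all alternatives). That difference was also called without repeat 1 (adjusted p = 0.0424) or repeat 2 (adjusted p = 0.043) of WT with EF. WT differed from no ARID1A by -0.05 with either vector (adjusted p = 0.905 and 0.886). Of the 3 calls, that against no ARID1A with the EV was lost without any 1 of its 4 libraries (adjusted p = 0.0792 to 0.133). That against no ARID1A with EF was lost without repeat 1 of ΔIDR1b with EF (adjusted p = 0.0816), and that against WT without repeat 1 of ΔIDR1b with EF (0.18) or repeat 2 of WT with EF (0.0849).

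CDKN1B (p27, chromosome 12, 12685498 to 12722369) varied less. It stood at 36.5 and 34.9 CPM in no ARID1A with the EV, 42.7 and 36.1 CPM with EF, 32.4 and 33.2 CPM in WT with the EV, and 34.6 and 30.0 CPM with EF. In ΔIDR1b it stood at 32.5 and 28.5 CPM with the EV, and 27.6 and 31.2 CPM with EF. It was called in 1 comparison, lower in ΔIDR1b than in no ARID1A with EF (log2 difference -0.42, SE 0.14, adjusted p = 0.0174). That call was lost without repeat 1 of no ARID1A with EF (adjusted p = 0.226) or repeat 1 of ΔIDR1b with EF (adjusted p = 0.158). With the EV the same difference was -0.23 (SE 0.14, adjusted p = 0.218).

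**Figure D2:**
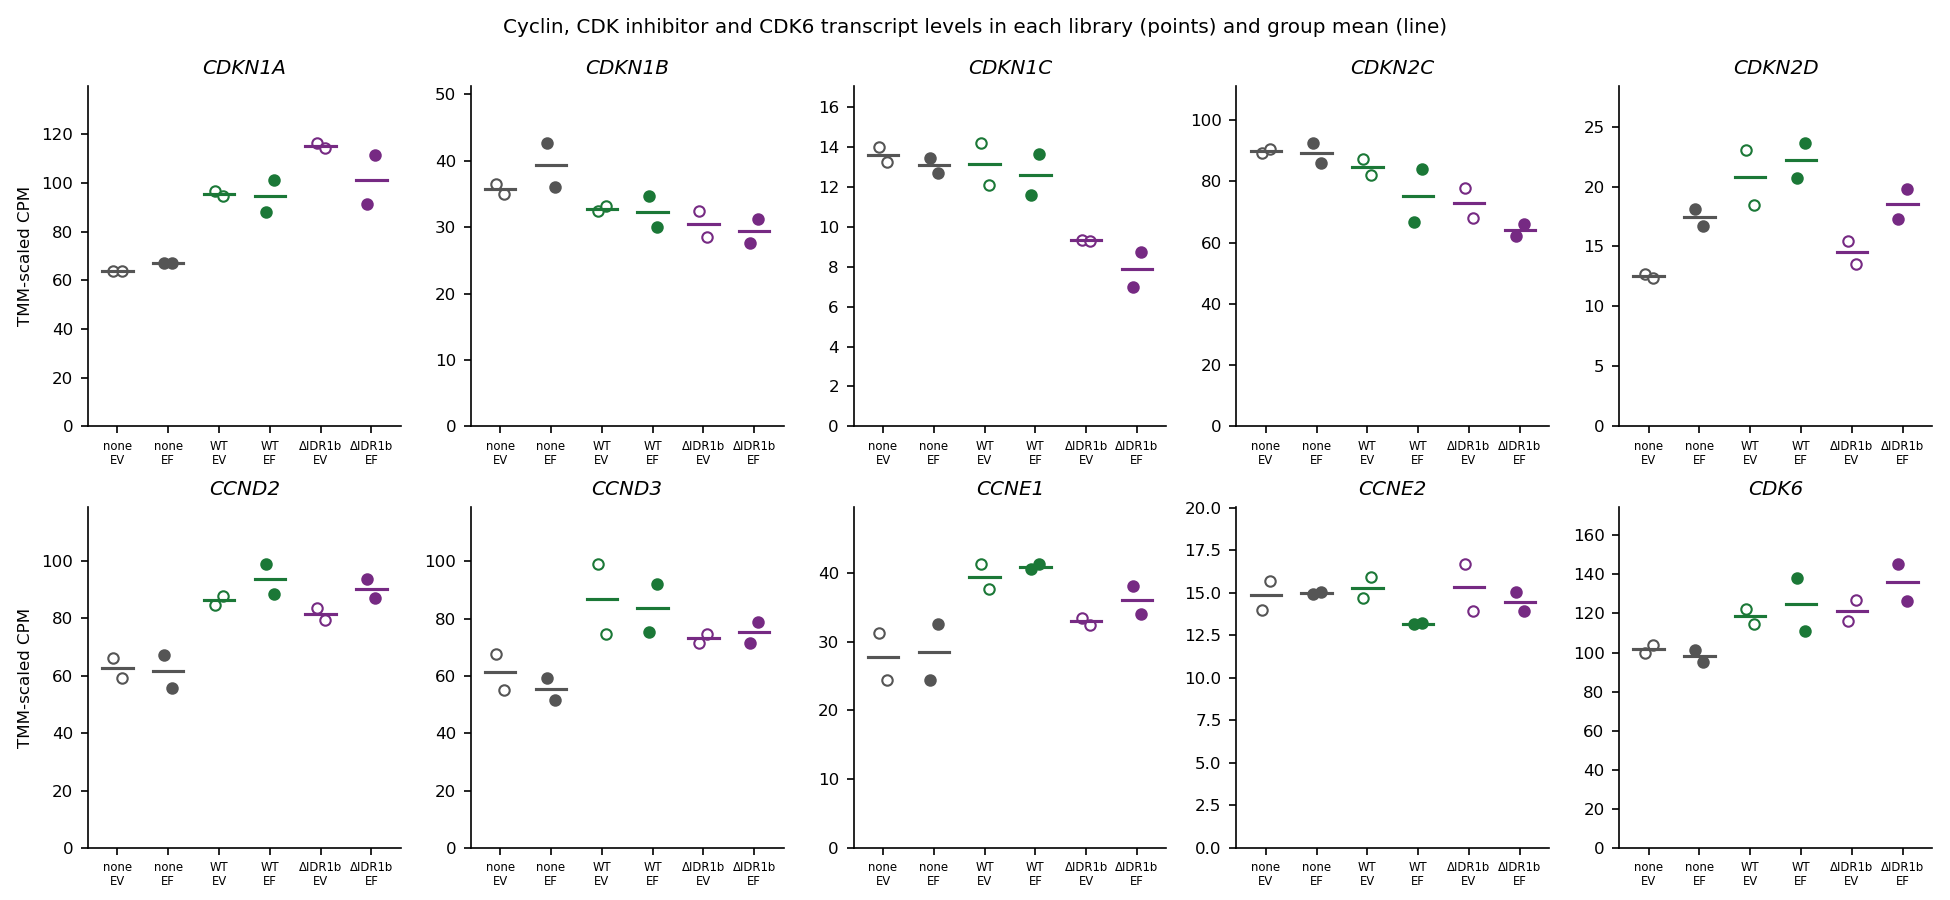
Transcript level (vertical axis, TMM-scaled CPM, from 0) of each gene in the 6 groups. Points are the 2 libraries of a group (open for the empty vector, EV, filled for EWS-FLI1, EF) and lines are their means, in grey for no ARID1A, green for WT and purple for ΔIDR1b. CDKN1A steps up from 63.7 to 67.3 CPM in grey to 88.1 CPM or more elsewhere, and CDKN1C steps down to at most 9.36 CPM in purple.

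The INK4 inhibitors went separate ways. CDKN2C (p18, chromosome 1, 50960745 to 50974634) was the most abundant of the 10 genes per length, at 29.8 RPKM in no ARID1A with the EV. Its level was 89.2 and 90.6 CPM in that group, 92.6 and 86.1 CPM with EF, 87.1 and 82.2 CPM in WT with the EV, and 66.7 and 84.0 CPM with EF. In ΔIDR1b it was 77.8 and 68.0 CPM with the EV, and 62.3 and 66.0 CPM with EF. The ΔIDR1b libraries lay below those of no ARID1A, and the WT libraries overlapped both. ΔIDR1b was lower than no ARID1A by -0.48 on the log2 scale with EF (SE 0.12, adjusted p = 0.00171), a call made under all 20 alternatives. With the EV the difference was -0.30 (SE 0.12, adjusted p = 0.0435), and the call was lost under 8 of the 20, among them no filter on low counts (adjusted p = 0.0667). Without single libraries its adjusted p was 0.0506 and 0.0538 (repeats 1 and 2 of WT with the EV), 0.0585 and 0.0583 (no ARID1A with EF), 0.127 and 0.166 (no ARID1A with the EV) and 0.336 (repeat 2 of ΔIDR1b with the EV). WT against no ARID1A with EF, -0.25 (adjusted p = 0.149), was called without repeat 2 of WT with EF (adjusted p = 0.0108). ΔIDR1b against WT with EF, -0.23 (adjusted p = 0.173), was called without repeat 1 of WT with EF (adjusted p = 0.0191). Of its exonic bases 20.4% are shared with ENSG00000290102 on the opposite strand.

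CDKN2D (p19, chromosome 19, 10566460 to 10569059) was lowest in no ARID1A with the EV, at 12.7 and 12.4 CPM. It was 18.2 and 16.7 CPM with EF, 23.1 and 18.5 CPM in WT with the EV, and 20.7 and 23.7 CPM with EF. In ΔIDR1b it was 15.4 and 13.6 CPM with the EV, and 17.3 and 19.8 CPM with EF. WT was higher than no ARID1A with the EV by 0.72 on the log2 scale (1.65-fold, SE 0.17, adjusted p = 0.00533), the largest such difference among the 10 genes. ΔIDR1b was lower than WT with the EV by -0.52 (SE 0.17, adjusted p = 0.0251), and its difference from no ARID1A was 0.21 (SE 0.18, adjusted p = 0.398). With EF the same 3 differences were 0.35, -0.26 and 0.09, with adjusted p of 0.161, 0.301 and 0.722. The call in WT was lost without repeat 2 of no ARID1A with the EV (adjusted p = 0.0675) or repeat 1 of WT with the EV (0.137). That against WT was lost without repeat 1 of WT with the EV (adjusted p = 0.282), or repeat 1 (0.0582) or 2 (0.194) of ΔIDR1b with the EV.

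Both D-type cyclins were lower in every library without ARID1A than in every library with either form. CCND2 (cyclin D2, chromosome 12, 4269771 to 4305353) stood at 66.2 and 59.2 CPM in no ARID1A with the EV, and 67.3 and 55.9 CPM with EF. In WT it stood at 84.7 and 87.9 CPM with the EV, and 98.9 and 88.5 CPM with EF. In ΔIDR1b it stood at 83.6 and 79.6 CPM with the EV, and 93.6 and 87.2 CPM with EF. WT exceeded no ARID1A by 0.46 on the log2 scale with the EV (1.38-fold, SE 0.12, adjusted p = 0.00739) and by 0.61 with EF (1.52-fold, SE 0.12, adjusted p = 3.15e-04). ΔIDR1b exceeded it by 0.38 (SE 0.12, adjusted p = 0.0106) and 0.55 (SE 0.12, adjusted p = 3.09e-04). ΔIDR1b and WT differed by -0.08 with the EV and -0.05 with EF (SE 0.11 each, adjusted p = 0.652 and 0.791). Both EF calls were made under all 20 alternatives. Both EV calls were lost without repeat 2 of no ARID1A (adjusted p = 0.146 each), that of WT also without its repeat 2 (0.0552) and that of ΔIDR1b without its repeat 1 (0.0855). CCND2 shares 13.8% of its exonic bases with CCND2-AS1, ENSG00000285901 and ENSG00000290063, of which the first and the last lie on the opposite strand.

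CCND3 (cyclin D3, chromosome 6, 41934934 to 42050357) stood at 67.6 and 55.0 CPM in no ARID1A with the EV, and 59.2 and 51.7 CPM with EF. In WT it stood at 99.0 and 74.6 CPM with the EV, and 75.4 and 92.1 CPM with EF, so the repeats of WT were far apart. In ΔIDR1b it stood at 71.6 and 74.8 CPM with the EV, and 71.6 and 79.0 CPM with EF. WT exceeded no ARID1A by 0.50 with the EV (1.42-fold, SE 0.13, adjusted p = 0.0112) and by 0.60 with EF (1.51-fold, SE 0.13, adjusted p = 0.00176). ΔIDR1b exceeded it by 0.44 with EF (SE 0.13, adjusted p = 0.0096). With the EV the ΔIDR1b difference was 0.26 (SE 0.13, adjusted p = 0.141), called with a replicate block inside each vector (adjusted p = 0.0375, and 0.0375 to 0.665 over all alternatives). The WT call with the EV was lost without repeat 1 of WT with the EV (log2 difference 0.28, adjusted p = 0.333) or repeat 2 of no ARID1A with the EV (0.36, adjusted p = 0.235). Both EF calls were lost without repeat 2 of no ARID1A (adjusted p = 0.0612 for WT and 0.139 for ΔIDR1b), and that of ΔIDR1b without its repeat 2 (0.0894). ΔIDR1b against WT with the EV, -0.24 (adjusted p = 0.178), was called without repeat 2 of WT with the EV (adjusted p = 0.0429).

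The E-type cyclins differed from each other. CCNE1 (cyclin E1, chromosome 19, 29811991 to 29824312) stood at 31.2 and 24.4 CPM in no ARID1A with the EV, and 24.4 and 32.6 CPM with EF. In WT it stood at 41.2 and 37.6 CPM with the EV, and 40.5 and 41.2 CPM with EF. In ΔIDR1b it stood at 33.5 and 32.5 CPM with the EV, and 38.0 and 34.0 CPM with EF. All 4 WT libraries lay above all 4 without ARID1A, by 0.50 on the log2 scale with the EV (1.42-fold, SE 0.15, adjusted p = 0.0226) and by 0.52 with EF (1.44-fold, SE 0.15, adjusted p = 0.0123). ΔIDR1b lay between, with differences from no ARID1A of 0.25 (adjusted p = 0.212) and 0.34 (adjusted p = 0.0746), the latter called with a replicate block inside each vector (adjusted p = 0.0298, and 0.0239 to 0.602 over all alternatives). It was also called without repeat 2 of no ARID1A with EF (adjusted p = 0.0239) or either repeat of WT with EF (0.0442 each). The WT call with the EV was lost without repeat 2 of no ARID1A (adjusted p = 0.332) or repeat 1 (0.196) or 2 (0.0515) of WT. With EF it was lost without repeat 1 of no ARID1A (log2 difference 0.33, adjusted p = 0.278) and in a fit to the compared libraries alone (adjusted p = 0.0585).

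CCNE2 (cyclin E2, chromosome 8, 94879770 to 94896678) was the flattest of the set, with group means from 13.2 to 15.3 CPM. It stood at 14.0 and 15.7 CPM in no ARID1A with the EV, 14.9 and 15.04 CPM with EF, 14.7 and 15.9 CPM in WT with the EV, and 13.2 CPM in both repeats with EF. In ΔIDR1b it stood at 16.7 and 13.9 CPM with the EV, and 15.01 and 13.9 CPM with EF. It was called in 0 of the 13 comparisons and under 0 of the alternatives. Its log2 differences between ARID1A states ran from -0.18 to 0.13 (SE 0.18). Of its exonic bases 37.1% are shared with INTS8 and ENSG00000272509 on the opposite strand, the largest such share here. The counts were made without strand and left out fragments over several genes, so fragments in the shared bases are missing from its level.

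CDK6 (chromosome 7, 92604921 to 92836573), the partner kinase of the D-type cyclins, had the most counts of the set. It stood at 99.8 and 103.7 CPM in no ARID1A with the EV, and 101.1 and 95.1 CPM with EF. In WT it stood at 122.4 and 114.5 CPM with the EV, and 138.1 and 111.1 CPM with EF. In ΔIDR1b it stood at 116.2 and 126.7 CPM with the EV, and 145.2 and 126.6 CPM with EF. The 4 libraries without ARID1A were the lowest. With EF, ΔIDR1b exceeded no ARID1A by 0.47 on the log2 scale (1.39-fold, SE 0.11, adjusted p = 0.00119), a call made under all 20 alternatives, and WT by 0.35 (1.27-fold, SE 0.11, adjusted p = 0.0288). With the EV the differences were 0.25 for ΔIDR1b (adjusted p = 0.0771) and 0.22 for WT (adjusted p = 0.213). The ΔIDR1b difference with the EV was called with a replicate block inside each vector (adjusted p = 0.0225, and 0.0125 to 0.364 over all alternatives), and without repeat 1 (0.0233) or repeat 2 (0.023) of WT with EF. The WT call with EF was lost with upper-quartile scaling (adjusted p = 0.0688), with only the libraries compared (0.111), without repeat 1 of WT with EF (log2 difference 0.18, adjusted p = 0.284), and without repeat 1 (0.0958) or 2 (0.209) of no ARID1A with EF.

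Per length, in no ARID1A with the EV, CDKN2C at 29.8 RPKM and CDKN1A at 21.3 RPKM led the set. CCNE1 (11.3), CCND3 (10.6), CDKN2D (8.35), CDK6 (8.31) and CCND2 (7.85 RPKM) followed, and CDKN1C (5.49), CDKN1B (3.86) and CCNE2 (3.38 RPKM) were lowest. This order takes all exonic bases as the length. On the bases that no other gene shares, a length chosen after seeing the data, CCND2 at 9.11 RPKM passed CDKN2D (8.35) and CDK6 (8.37), and CCNE2 at 5.37 RPKM passed CDKN1B, while CDKN2C (37.5) and CDKN1A (22.4) still led. Ordered by the ratio of their highest to their lowest group mean, CDKN1A (1.81), CDKN2D (1.77) and CDKN1C (1.73) were the most variable. CCND3 (1.57), CCND2 (1.52), CCNE1 (1.47), CDKN2C (1.40), CDK6 (1.39) and CDKN1B (1.34) came next, and CCNE2 (1.16) last. In the order of group means, ΔIDR1b with the EV stood first for CDKN1A, above all libraries of the group that followed it, ΔIDR1b with EF. WT with EF stood first for CDKN2D, CCND2 and CCNE1 but overlapped the group that followed. In these bulk samples, fewer cells of a type and less RNA per cell cannot be told apart, so a level per library says nothing of how many cells carried the transcript or in which phase they were.

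With EWS-FLI1 the 10 genes stayed short of the test in every ARID1A state. The question was whether the fusion changed their level within an ARID1A state. By edgeR's quasi-likelihood test 0 of the 10 were called with EF in no ARID1A (0.0442% of all genes), 0 in WT (0.221%), 0 in ΔIDR1b (0.172%) and 0 in the average over the 3 states (0.466%). At an unadjusted p under 0.05 there were 1, 0, 1 and 1 of them, each time CDKN2D, and DESeq2 also called 0. CDKN2D was higher with EF by 0.47 in no ARID1A (SE 0.18, adjusted p = 1) and by 0.36 in ΔIDR1b (SE 0.17, adjusted p = 0.908), without overlap of the libraries, and by 0.10 in WT (SE 0.17, adjusted p = 0.968). Its average difference was 0.31 (SE 0.10, adjusted p = 0.284), which did not pass the test. The other 9 genes had differences between -0.24 (CDKN1C in ΔIDR1b) and 0.16 (CDK6 in ΔIDR1b).

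Whether the effect of EF differed between ARID1A states was tested directly. Of the 10 genes 0 were called for WT against no ARID1A (0.0245% of all genes), 0 for ΔIDR1b against no ARID1A (0.0196%) and 0 for ΔIDR1b against WT (0% of all genes), with edgeR's quasi-likelihood test, and 0 had an unadjusted p under 0.05. DESeq2 called 0 as well. The largest of these differences was that of CDKN2D between WT and no ARID1A, -0.38 on the log2 scale (SE 0.24). An ARID1A difference that was called with one vector and not with the other was therefore not shown to depend on EWS-FLI1.

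**Figure D3:**
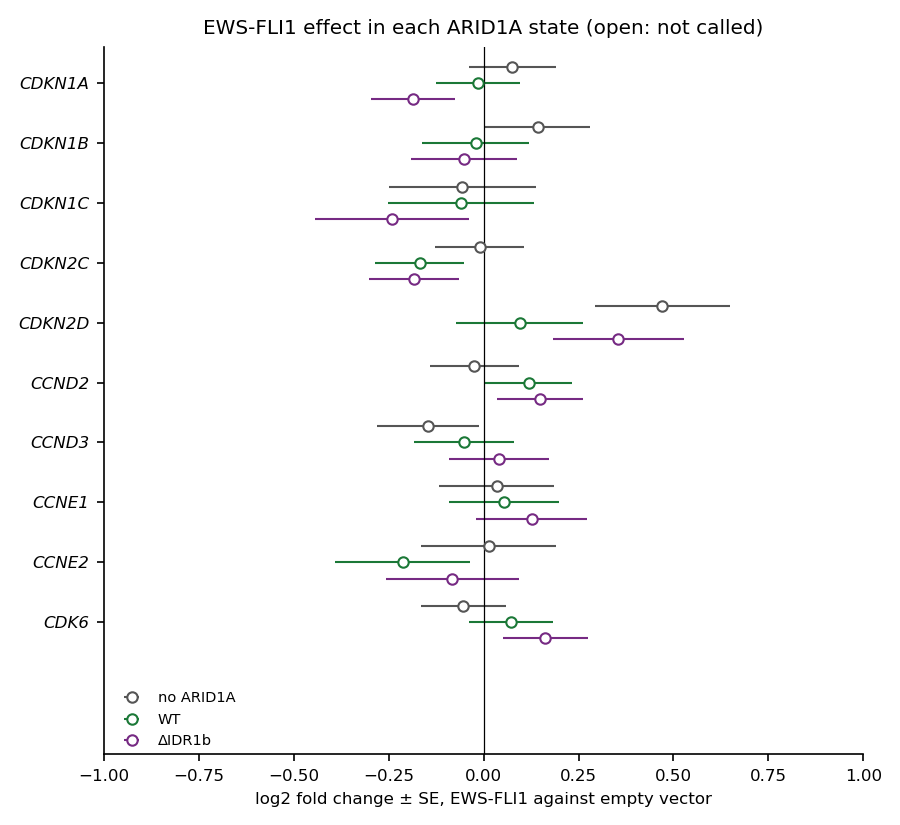
Log2 fold change of each gene with EWS-FLI1 against the empty vector (horizontal axis, bars show 1 SE) in no ARID1A (grey), WT (green) and ΔIDR1b (purple). All points are open because 0 of 10 genes were called in any state. CDKN2D lies farthest from 0, at 0.47 in grey.

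Among the other cyclins, CCND1 (cyclin D1) moved in the same direction as CCND2 and CCND3, and further. It averaged 17.0 CPM in no ARID1A, 30.6 CPM in WT and 46.1 CPM in ΔIDR1b with the EV, and 17.4, 45.5 and 72.0 CPM with EF. Unlike the 10 genes it was called with EF in ΔIDR1b (log2 difference 0.64, SE 0.13, adjusted p = 0.0194) and in the average over states (0.42, SE 0.08, adjusted p = 0.00467). Of 10 other cyclins tested, 1 was called higher and 2 lower in WT than in no ARID1A with the EV, and 1 and 1 with EF. In ΔIDR1b 2 were higher and 3 lower with the EV, and 2 and 2 with EF. The list's median log2 difference was -0.02 and 0.13 in WT, and -0.21 and -0.05 in ΔIDR1b. Over all genes, 6.5% were higher and 5.19% lower in WT with the EV, and 9.72% and 8.36% with EF. In ΔIDR1b 16.4% of all genes were higher and 16.8% lower with the EV, and 18.1% and 17.9% with EF. CCNG2, an atypical cyclin linked to cell-cycle arrest, was lower in WT by -0.75 with the EV and -0.93 with EF, and in ΔIDR1b by -1.48 and -1.42. CCNA2, the S-phase and G2 cyclin A2, was lower in ΔIDR1b by -0.66 and -0.47, and CCNF was higher by 0.85 with either vector.

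Of 7 other CDKs and INK4 genes tested (8 listed), 1 was higher in WT with the EV and 0 were called with EF. In ΔIDR1b 1 was higher and 2 lower than in no ARID1A with either vector. Medians were 0.10 and 0.14 in WT, and -0.09 and -0.05 in ΔIDR1b. For this list and the next, the shares over all genes in WT were 6.5% higher and 5.19% lower with the EV. With EF they were 9.72% and 8.36%. In ΔIDR1b they were 16.4% and 16.8% with the EV, and 18.1% and 17.9% with EF. CDKN2B (p15, an INK4 inhibitor) was higher with the EV in WT by 0.85 (SE 0.18, adjusted p = 0.0021) and in ΔIDR1b by 0.62 (SE 0.19, adjusted p = 0.00922). CDKN2A, which encodes p16 and ARF, was lower in ΔIDR1b by -0.48 with the EV and -0.41 with EF, and CDK1, the mitotic kinase, by -0.58 and -0.66. CDK4, the other partner of the D-type cyclins, was higher in ΔIDR1b with EF by 0.38 (adjusted p = 0.011). Of 9 regulators of CDK activity, 1 was higher and 1 lower in WT with each vector. In ΔIDR1b 1 was higher with either vector, and 4 were lower with the EV and 5 with EF. Medians were -0.08 and -0.13 in WT, and -0.22 and -0.40 in ΔIDR1b. The phosphatase CDC25A was higher in WT (0.63 with the EV, 0.79 with EF) and in ΔIDR1b (0.48 and 0.64), and the kinase WEE1, which inhibits CDK1, was lower in WT (-0.47 and -0.63) and in ΔIDR1b (-0.86 and -0.81). CKS2 and CKS1B, small CDK-binding subunits, were lower in ΔIDR1b by -1.04 and -0.79 with the EV. SKP2, which directs CDKN1B protein to degradation, was lower in ΔIDR1b than in WT by -0.59 with the EV and -0.42 with EF.

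Of 13 pocket proteins and E2F factors, 8 were called higher and 1 lower in ΔIDR1b than in no ARID1A with the EV, and 10 and 1 with EF. Of all genes 16.4% were higher and 16.8% lower with the EV, and 18.1% and 17.9% with EF. The list's median log2 difference was 0.30 and 0.41. In WT, where 11.7% and 18.1% of all genes were called, 3 were higher and 0 lower with each vector, with medians of 0.06 and 0.13. With upper-quartile scaling the WT median with the EV turned to -0.01, with 3 higher and 1 lower. E2F3, an activating E2F, was higher in ΔIDR1b by 1.28 with the EV and 1.153 with EF, and in WT by 0.61 and 0.60. E2F5, a factor that acts with pocket proteins as a repressor, was lower in ΔIDR1b by -0.89 and -0.80. Of 20 S-phase targets of E2F, 5 were higher and 1 lower in WT with the EV, and 8 and 0 with EF (4 and 1 with upper-quartile scaling). In ΔIDR1b 7 were higher and 5 lower with the EV, and 6 and 5 with EF, where 16.4% and 16.8%, and 18.1% and 17.9%, of all genes were called. Medians were 0.18 with either vector in WT, and 0.02 and 0.05 in ΔIDR1b. MCM10, CDC6 and MCM6, which act at replication origins, led the higher genes in WT with the EV, at 0.58, 0.53 and 0.50. CDT1, which loads the MCM helicase, was lower in ΔIDR1b by -0.54 with the EV and -0.45 with EF.

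Of 19 G2/M genes, 2 were higher and 0 lower in WT with the EV, and 4 and 2 with EF. In these comparisons 11.7% and 18.1% of all genes were called. In ΔIDR1b 3 were higher and 3 lower with the EV, and 3 and 2 with EF, which lies near or below the 33.3% and 35.9% of all genes called. Medians were 0.06 and 0.13 in WT (0.00 and 0.07 with upper-quartile scaling), and -0.01 and 0.09 in ΔIDR1b. The proliferation marker MKI67 and the kinetochore gene CENPF were higher in ΔIDR1b by 0.96 and 0.92 with the EV, while the ubiquitin-conjugating enzyme UBE2C, which acts with the anaphase-promoting complex, was lower by -0.74. Of 21 p53 targets, 6 were higher and 0 lower in WT with the EV, and 8 and 2 with EF, with medians of 0.32 and 0.24. With upper-quartile scaling these were 6 and 1, and 7 and 2. In the main fit 6.5% of all genes were higher and 5.19% lower with the EV, and 9.72% and 8.36% with EF. In ΔIDR1b 5 p53 targets were higher and 3 lower with the EV, and 9 and 2 with EF, with medians of 0.15 and 0.20. There 16.4% of all genes were higher and 16.8% lower with the EV, and 18.1% and 17.9% with EF. The count of p53 targets with the EV, both directions together, lay near the share over all genes. The antiproliferative gene BTG2 was higher in WT by 0.84 and 1.05, and in ΔIDR1b by 1.17 and 1.40, and the stress-response gene SESN2 by 0.80, 0.98, 1.00 and 1.34 in the same order. GADD45A, a growth-arrest gene of the DNA damage response, was lower in ΔIDR1b by -0.93 with the EV and -0.82 with EF, and lower than in WT by -1.60 and -1.19. It was also lower with EF in WT (-0.45, SE 0.10, adjusted p = 0.0269). In ΔIDR1b, CDKN1A and GADD45A thus lay on opposite sides of no ARID1A.

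Between ΔIDR1b and WT, the counts higher and lower were 2 and 4 (EV) and 2 and 3 (EF) for the other cyclins, and 0 and 4 and then 0 and 2 for the other CDKs and INK4 genes. They were 0 and 4 and then 0 and 3 for the regulators of CDK activity, and 5 and 1 and then 6 and 1 for the pocket proteins and E2F factors (medians 0.22 and 0.28). For S-phase targets they were 1 and 4 and then 0 and 3, for G2/M genes 4 and 3 with either vector, and for p53 targets 1 and 2 and then 0 and 2. With EF against the EV, CCND1 and GADD45A were the only genes of these 7 lists called in a state, in edgeR's test. No gene of these lists was called in an interaction. Of all genes 11.1% were higher and 13.4% lower in ΔIDR1b than in WT with the EV, and 8.48% and 10.1% with EF, so the counts of p53 targets lie below the share over all genes.

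**Figure D4:**
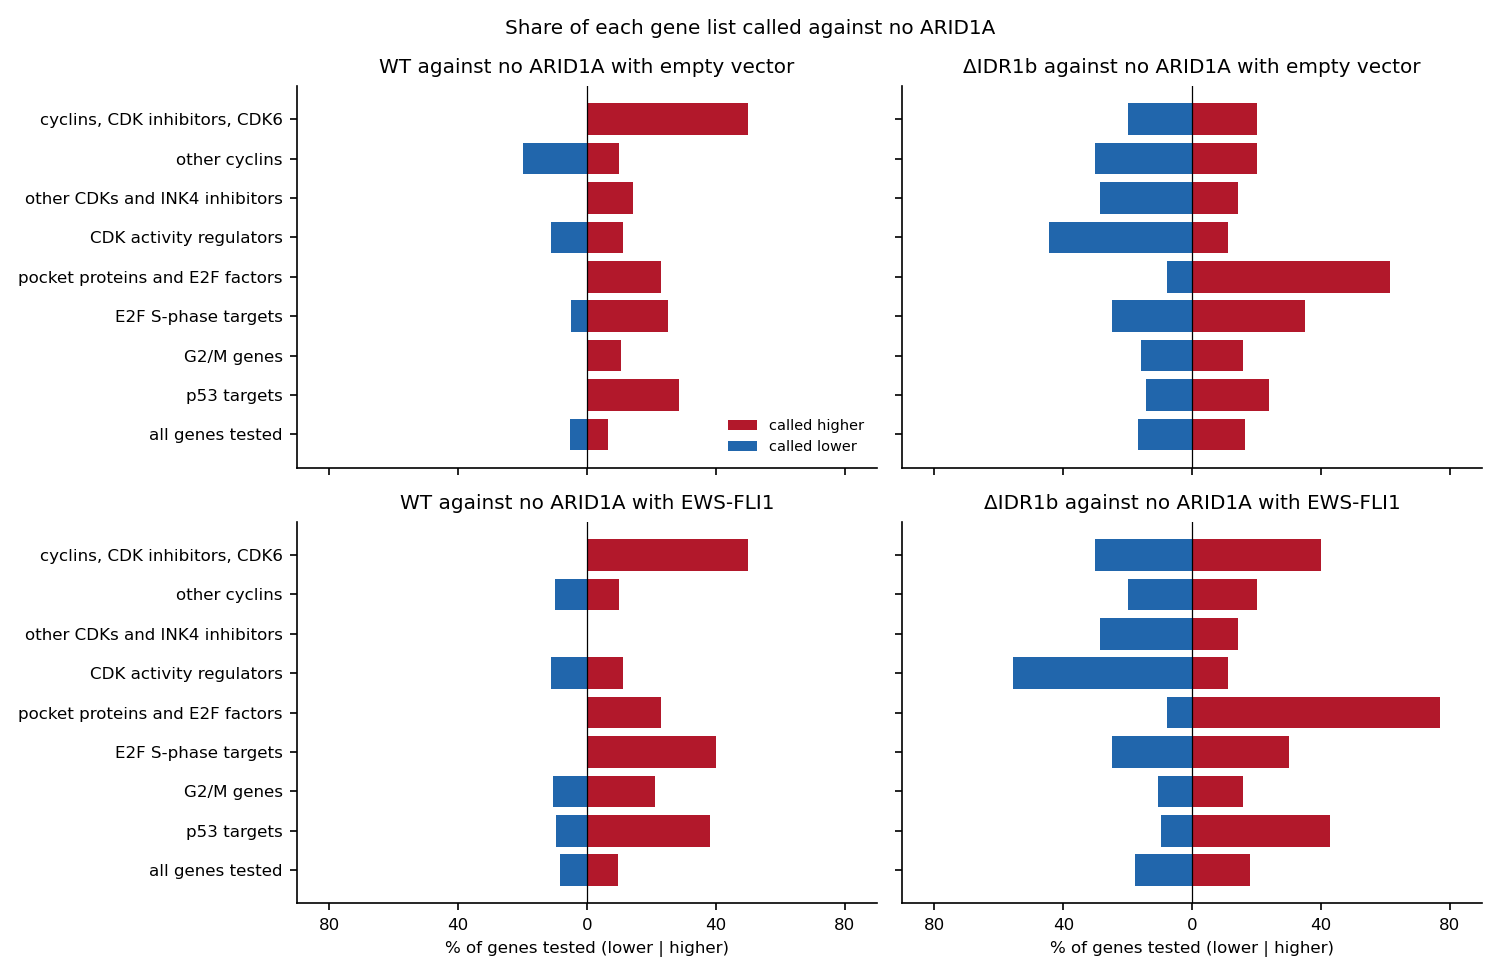
Share of the genes tested in each list that was called higher (red, right) or lower (blue, left) than in no ARID1A (horizontal axis, % of genes tested), for WT and ΔIDR1b with each vector. The bottom bar gives all 20377 genes. The 10 genes described here have 5 calls to the right and 0 to the left in both WT panels, and calls on both sides in both ΔIDR1b panels.

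Across the 12 libraries, pairs of the 10 genes varied together as a description, since all pairs share the libraries and their grouping. Pearson's r of log2 CPM was 0.87 for CDKN1C and CDKN2C and 0.86 for CCND2 and CDK6, and -0.88 for CDKN2C and CDK6 and -0.73 for CDKN1A and CDKN1B. The 2 genes most like each of the 10 were sought among 12011 genes with a mean of at least 5 CPM. CDKN1A was most like CTDSP2 (r = 0.98) and DNAJC14 (0.98). CDKN1C was most like OTUB1 (0.99) and PTBP1 (0.98), CDKN1B like SPCS1 and RBIS (0.95 each), and CDKN2C like PRR14 (0.98) and SLC2A4RG (0.97). CDKN2D was most like KRT8 (0.91) and HIBADH (0.89). Among the cyclins, CCND2 was most like DUSP3 and NAA50 (0.97 each), CCND3 like PIGS and CNP (0.95 each), and CCNE1 like the spindle gene TPX2 (0.94) and MRPS9 (0.93). CDK6 was most like WDR12 (0.97) and PPP2R5C (0.96). CCNE2, the flattest, reached only 0.78 with MICU3 and 0.76 with ASAH2B.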

How the data were processed

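PolyA RNA of 12 libraries (6 groups of 2) was counted. Per the file headers, the authors counted fragments per gene name with featureCounts 2.0.1 on GENCODE 41 exons (GRCh38.p13), with both ends aligned and no strand setting, and deposited the counts unnormalized. The submitters' processing notes name STAR, SAMtools and edgeR, and the aligner's version is not given in the sources used here.

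From these counts, filterByExpr (minimum count 10, minimum total 15) kept 20377 genes, and 20991 names had no count. The kept genes held 99.79 to 99.87% of each library. Values are TMM-scaled CPM, counts set to a common library size, and RPKM uses exonic length. All 12 libraries entered 1 quasi-likelihood model, with a mean for each group (edgeR 4.0.16, limma 3.58.1, R 4.3.3; common biological variation 10.1%). 13 contrasts were tested 2-sided with Benjamini-Hochberg adjustment over all genes, and the SE is the log2 fold change divided by the square root of F. Floors cover counting error only. The fit was tested on simulated data with 200 changed genes, and recovered 132 of them for WT against no ARID1A with the empty vector.

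Alternatives were other scalings, no filter, DESeq2 1.42.0, only the libraries compared, replicate blocks, and each library left out. The labels do not say what equal repeat numbers share. The differences between repeats, over 10695 genes, correlated at 0.104 to 0.194 between groups with the empty vector and at 0.153 to 0.412 between groups with EWS-FLI1, and at -0.223 to -0.008 across vectors. Equal repeat numbers thus deviated in the same direction within each vector, for the most part weakly, and not across vectors. Whether they form pairs was not tested.

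The 10 genes and all lists were chosen with earlier results of these data known. All 10 were named, with ARID1A, FLI1 and EWSR1 as a check of the labels, and up to 3 called genes a direction of each list, by size, at a mean of at least 1 CPM. EWSR1 averaged 389 to 529.6 CPM with the empty vector and 2043 to 3595 CPM with EWS-FLI1.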

Additional observations from a re-analysis of the deposited data

How the results depend on the processing

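Of 130 pairs of a gene and a comparison, 23 were called, and 8 of these were called under all 20 alternatives, 15 were lost under at least 1 and 0 changed direction. Of the 107 others, 99 were called under no alternative. The number of the 10 genes called moved as follows, and for each the cause was not tested. For ΔIDR1b against no ARID1A with the empty vector it fell from 4 to 2 with no filter on low counts and rose to 6 with only the libraries compared or with the replicate block within each vector. Between ΔIDR1b and WT with the empty vector it went from 1 to 2 with only the libraries compared and to 3 with the replicate block within each vector. With only the libraries compared it went with EWS-FLI1 from 5 to 3 between WT and no ARID1A, and from 1 to 0 between ΔIDR1b and WT. The replicate block within each vector lost no call, and gave 8 in place of 7 for ΔIDR1b and no ARID1A with EWS-FLI1. A block with the EWS-FLI1 repeat numbers crossed, added after seeing the data, gave 3 calls between ΔIDR1b and WT with the empty vector.

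Leaving out 1 library at a time, the count with the empty vector ranged from 1 to 5 between WT and no ARID1A (1 without repeat 2 of no ARID1A, 2 and 3 without repeats 1 and 2 of WT). It ranged from 1 to 5 between ΔIDR1b and no ARID1A (1 without repeat 2 of no ARID1A, 2 without any other library of these groups), and from 0 to 3 between ΔIDR1b and WT (0 without repeat 1 of WT or either of ΔIDR1b, 2 without repeat 2 of WT, 3 without either of WT with EWS-FLI1). With EWS-FLI1 it ranged from 3 to 6 (3 without either repeat of no ARID1A), from 5 to 8 (5 without repeat 1 of ΔIDR1b) and from 0 to 2 (0 without repeat 2 of WT or 1 of ΔIDR1b, 2 without repeat 1 of WT) in the same order. The counts of EWS-FLI1 effects and interactions stayed at 0 of 10 under every alternative run.

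The number of all genes called, which sets the background shares, moved more. For the effects of EWS-FLI1, the highest counts in WT (260), ΔIDR1b (177) and on average (532) came from the replicate block within each vector. In that fit EWS-FLI1 and the empty vector were set against each other at the level of repeat 1 only. These highest counts therefore belong to a different contrast from the effect over both repeats. Over all alternatives the effect of EWS-FLI1 gave 5 to 16 genes in no ARID1A (9 as reported), 23 to 260 in WT (45), 22 to 177 in ΔIDR1b (35) and 61 to 532 on average (95). With the empty vector it was 786 to 3606 between WT and no ARID1A (2381), 4504 to 7980 between ΔIDR1b and no ARID1A (6778) and 2759 to 6156 between ΔIDR1b and WT (4995). With EWS-FLI1 it was 1815 to 4849 (3684), 5079 to 8274 (7321) and 1581 to 5049 (3785). The interactions gave 3 to 36 (5), 3 to 6 (4) and 0 to 21 (0). The lowest of these genes had 99 counts in a library, and having 2 libraries a group limits the precision.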
